A study of Mus musculus with 12 samples.

Results

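The mitochondrial genome of the mouse carries 37 genes, and their RNA levels were followed across isolated muscle fibers of young and aged mice. All 37 rows whose gene name begins with mt- were taken from the deposited tables, of 55367 gene names in all, and all 37 were present in each of the 12 samples and passed the filter on low values. They comprise 13 protein genes, 2 rRNA genes and 22 tRNA genes. Myofibers were isolated from the extensor digitorum longus, a fast hindlimb muscle, after collagenase digestion, with 4 samples in each of 3 groups. Young fibers came from mice of 3 to 4 months. Fibers of mice of 26 to 28 months were stained with Fluo-4, a dye that fluoresces on binding calcium, and sorted under a fluorescence stereomicroscope as Fluo-4 normal or, where the stain was stronger and aberrant, as Fluo-4 abnormal. No group carried a transgene or received a treatment according to the labels. The study's mice were C57BL/6J, and the methods give a separate source for aged mice, so that supplier and age cannot be told apart. The number of fibers and of mice behind each sample is not given in the sources used here, so the p-values measure the spread between these samples.

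Mitochondrial DNA is transcribed from both strands into long transcripts that span most of the circle. tRNAs are interspersed between the rRNAs and mRNAs, and their excision releases the neighbouring RNAs, a scheme known as tRNA punctuation. The 13 mRNAs encode core subunits of respiratory complexes I, III and IV and of ATP synthase (complex V), while the 2 rRNAs and the tRNAs serve the translation of those mRNAs inside the organelle. Nearly all other subunits are encoded in the nucleus, so each complex is built from the products of both genomes. Fast fibers hold fewer mitochondria than slow fibers, yet mitochondrial transcripts are among the most abundant RNAs of muscle.

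The genome has 16299 bases in GRCm39, and 28 of the genes (12 protein, 2 rRNA and 14 tRNA genes) are written on the + strand of the reference, whereas mt-Nd6 and 8 tRNA genes are written on the - strand. The genes are so tightly packed that reads at their borders belong to more than one of them. The overlaps of mt-Atp8 with mt-Atp6 (43 bases), of mt-Nd4l with mt-Nd4 (7 bases) and of mt-Nd5 with mt-Nd6 (14 bases, on opposite strands) are shown here because values of these pairs share reads. Each is given on the + strand of GRCm39, 5′ to 3′, with 20 bases on either side and with the bases annotated to both genes in capitals.
mt-Atp8/mt-Atp6, chrM:7907-7989: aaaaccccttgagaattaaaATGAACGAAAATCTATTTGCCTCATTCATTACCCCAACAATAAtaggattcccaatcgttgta
mt-Nd4l/mt-Nd4, chrM:10147-10193: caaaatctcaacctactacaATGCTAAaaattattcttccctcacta
mt-Nd5/mt-Nd6, chrM:13532-13585: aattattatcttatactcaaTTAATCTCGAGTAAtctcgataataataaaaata

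The library kit (SMART-Seq v4) does not keep the strand, so RNA of a gene and RNA from the other strand at the same place cannot be told apart. This bears most on mt-Nd6 and the - strand tRNA genes, which lie opposite the transcript of the + strand genes. The 4 tRNA genes with the most reads, all coded on the - strand, and mt-Tl1, the + strand tRNA gene with the most reads, are shown because the tRNA values turn on them. Each is written 5′ to 3′ on its own coded strand in GRCm39, and capitals mark bases that are also annotated to a neighbour, mt-Ti for mt-Tq and mt-Co1 for mt-Ts1.
mt-Tq, chrM:3772-3842, - strand: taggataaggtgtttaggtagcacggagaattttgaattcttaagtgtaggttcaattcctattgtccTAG
mt-Ts1, chrM:6870-6938, - strand: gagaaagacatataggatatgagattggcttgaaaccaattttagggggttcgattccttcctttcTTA
mt-Te, chrM:14071-14139, - strand: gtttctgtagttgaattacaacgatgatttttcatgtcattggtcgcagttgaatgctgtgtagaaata
mt-Tp, chrM:15356-15422, - strand: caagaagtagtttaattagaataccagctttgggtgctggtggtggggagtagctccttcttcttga
mt-Tl1, chrM:2676-2750, + strand: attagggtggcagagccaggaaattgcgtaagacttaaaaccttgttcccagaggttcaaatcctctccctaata

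The stretch from the end of mt-Nd1 to the start of mt-Tm shows this layout at mt-Tq. It is written on the + strand with the place of mt-Tq in capitals, between mt-Ti and mt-Tm, which are coded on the other strand.
mt-Nd1 to mt-Tm, chrM:3688-3864: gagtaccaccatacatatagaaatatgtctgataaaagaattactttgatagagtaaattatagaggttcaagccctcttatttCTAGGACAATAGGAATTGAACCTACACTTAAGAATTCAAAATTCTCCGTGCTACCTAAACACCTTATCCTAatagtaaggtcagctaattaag

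Values are TPM, a unit in which reads are divided by gene length and scaled so that all genes sum to 1000000 in every sample, so a fall of some genes goes with a rise of others. Defining genes of myofibers, such as Acta1, Ckm and Ttn, made up 151349 to 196284 TPM, and 4 adipocyte markers were listed at 0 throughout. Globin and other erythroid markers were the largest non-muscle signal and summed to 33.1 to 120.6 TPM in Young, 118.5 to 481.6 TPM in Fluo-4 normal and 44.4 to 235.8 TPM in Fluo-4 abnormal samples. Immune markers summed to 1.80 to 3.01, 5.70 to 15.9 and 9.48 to 16.2 TPM in the same order. Of 5 immune markers tested, 4 had higher and 1 had lower levels in abnormal than in normal fibers. Only Cd3e was called there, at 3.05 ± 1.23 TPM in abnormal and 0.718 ± 0.115 TPM in normal samples (SD, adjusted p = 0.0029 by the limma test described below). Against Young, all 5 were higher in abnormal fibers and 2 were called. Summed levels of the satellite cell, endothelial, fibroblast, Schwann and smooth muscle lists stayed at or under 80.5 TPM in every sample. The part of these cells in the results was not tested, and fewer mitochondria per fiber and less RNA per mitochondrion cannot be told apart in such samples.

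The 13 mRNAs together took 7.05% ± 0.302 (SD, n = 4) of all TPM in Young, 8.76% ± 0.924 in Fluo-4 normal and 5.23% ± 0.976 in Fluo-4 abnormal fibers. The samples ranged from 6.63% to 7.32%, from 7.93% to 9.95% and from 4.22% to 6.25%, so the 3 groups did not overlap. The rRNA genes took 0.691% ± 0.0304, 0.898% ± 0.0827 and 0.578% ± 0.0634 in the same order, and the tRNA genes 0.0330% ± 0.00408, 0.0344% ± 0.00231 and 0.0172% ± 0.00342. The tRNA shares of Young and Fluo-4 normal fibers differed by less than the spread between samples, and the share was lower in each Fluo-4 abnormal sample than in any other.

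**Figure D1:**
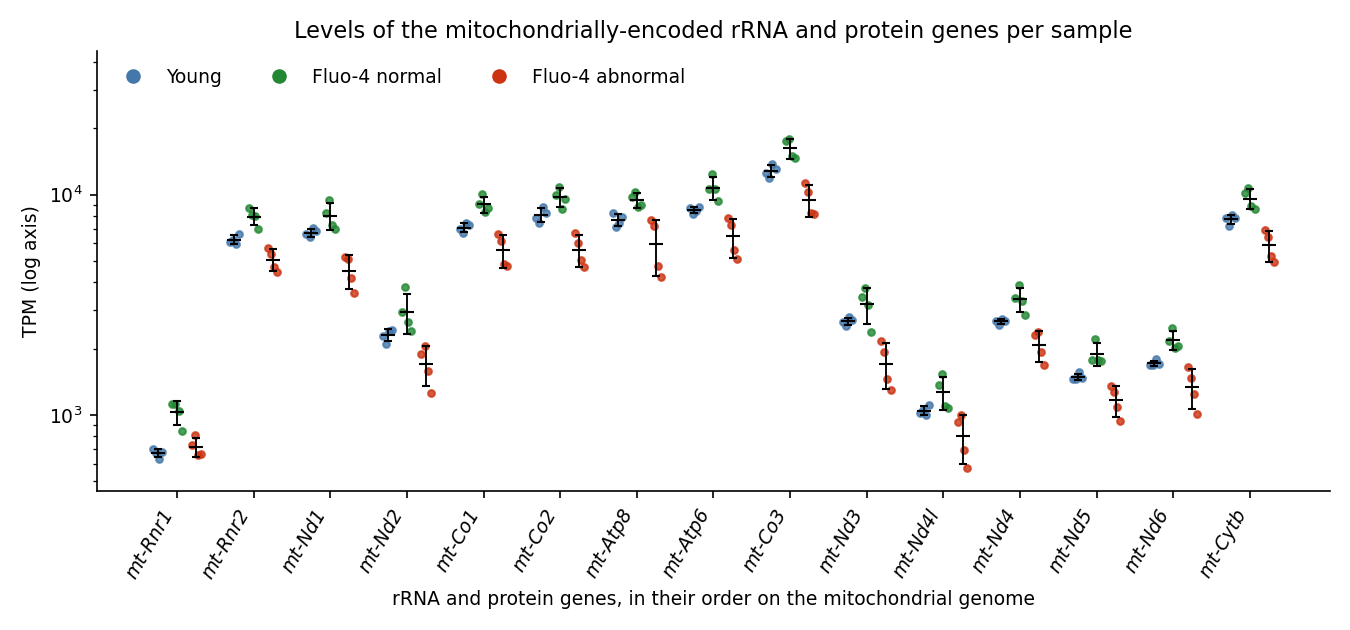
TPM on a log axis of the 2 rRNA and 13 protein genes in genome order. Points are the 4 samples of a group, and the black bar and whiskers give the mean and SD. Each of the 15 genes has its 4 abnormal samples below its 4 normal samples, and mt-Rnr1 is the gene whose abnormal and young samples lie closest.

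The comparison of Fluo-4 abnormal with Fluo-4 normal fibers asks what differs between fibers of the same age. Of the 37 genes, 34 were lower in abnormal fibers and 20 of these passed the test (limma on log2(TPM + 1), Benjamini-Hochberg adjusted over 14427 genes, threshold 0.05), against 1.99% of all tested genes called lower, and none was called higher, against 7.36% of all tested genes. In 21 of them no abnormal sample reached any normal sample, as for 2.54% of all tested genes. All 13 mRNAs, both rRNAs and 5 of 22 tRNA genes fell. With only these 2 groups in the fit, 14 of the 37 genes passed, of which 10 were mRNAs, 2 rRNA and 2 tRNA genes. Lower calls over all tested genes then went from 287 to 145. The median log2 difference over the 37 genes was -0.71, where the median over all tested genes was 0.10. Removing that offset by TMM-type factors (a trimmed-mean scaling) left 22 genes called, while lower calls over all tested genes went from 287 to 544. The same number in the label was taken to pair a normal with an abnormal aged sample. The labels do not say what a number marks. Each called gene was lower within all 4 such pairs, which follows by itself where no abnormal sample reached any normal sample. With the replicate block 25 of the 37 were called, and lower calls over all tested genes went from 287 to 407.

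The 7 complex I genes, mt-Nd1 to mt-Nd6 and mt-Nd4l, encode membrane subunits of the enzyme that oxidizes NADH. mt-Nd3 had the steepest fall of the mRNAs. Its levels were 3410, 3771, 3154 and 2372 TPM in Fluo-4 normal samples 1 to 4 and 2156, 1925, 1461 and 1295 TPM in Fluo-4 abnormal samples 1 to 4, while Young samples held 2520 to 2771 TPM. Every abnormal sample was below every other sample, by a narrow margin from normal sample 4, and the log2 difference from normal fibers was -0.90 ± 0.16 (SE, adjusted p = 0.0050 by limma). mt-Nd1, the first mRNA of the + strand order, stood at 8240, 9480, 7288 and 7013 TPM in normal and at 5203, 5103, 4160 and 3566 TPM in abnormal samples. The abnormal samples were again all lower, with a difference of -0.84 ± 0.13 (adjusted p = 0.0026). mt-Nd4l had the smallest difference of the complex, -0.69 ± 0.16 (adjusted p = 0.018), and the other 4 genes lay between. mt-Nd6, the only mRNA of the - strand, fell by 0.72 ± 0.12 on the log2 scale (adjusted p = 0.0044), close to the 0.70 ± 0.11 fall of its + strand neighbour mt-Nd5 (adjusted p = 0.0029).

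mt-Cytb encodes cytochrome b, the electron-carrying core of complex III. It measured 8569 to 10752 TPM in normal and 4961 to 6921 TPM in abnormal samples, which did not overlap, a log2 difference of -0.71 ± 0.12 (adjusted p = 0.0035). mt-Co1, mt-Co2 and mt-Co3 encode the catalytic core of cytochrome c oxidase (complex IV). mt-Co3 was the most abundant mitochondrial mRNA in every group. It measured 17423, 17893, 14923 and 14708 TPM in normal and 11307, 10221, 8285 and 8130 TPM in abnormal samples, with no overlap and a difference of -0.78 ± 0.12 (adjusted p = 0.0029). mt-Co2 fell by 0.80 ± 0.12 (adjusted p = 0.0022) and mt-Co1 by 0.71 ± 0.12 (adjusted p = 0.0035). The ATP synthase subunits mt-Atp6 and mt-Atp8, read from 1 shared mRNA, fell by 0.75 ± 0.13 (adjusted p = 0.0053) and by 0.71 ± 0.17 (adjusted p = 0.019). The 13 differences thus spanned -0.90 to -0.69, while the SE of a single gene was 0.11 to 0.17.

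Compared with Young fibers, Fluo-4 abnormal fibers were lower for 34 of the 37 genes, of which 10 passed the test, against 2.41% of all tested genes called lower. Samples did not overlap for 20 genes lower in abnormal fibers, against 3.95% of all tested genes. This comparison shares the abnormal samples with the first. The called mRNAs were mt-Nd1 (-0.59 ± 0.13, adjusted p = 0.014), mt-Nd3 (-0.66 ± 0.16, adjusted p = 0.023), mt-Co2 (-0.54 ± 0.12, adjusted p = 0.015) and mt-Co3 (-0.45 ± 0.12, adjusted p = 0.041). The other 9 mRNAs had lower levels too, with a median over all 13 of -0.42, and did not pass. The count rested on single libraries and on the error model. It was 4 without Fluo-4 abnormal 4 and likewise without Young 4. Leaving out Fluo-4 abnormal 2, Young 1 or Young 3 gave 5, and leaving out Fluo-4 abnormal 3 or Young 2 gave 6. Lower calls over all tested genes went down as well in these fits, from 347 to between 198 (without Young 4) and 249 (without Fluo-4 abnormal 2). With the replicate block the count was 20, all 13 mRNAs passed, and lower calls over all tested genes went from 347 to 528.

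Fluo-4 normal fibers held higher levels than Young fibers for 27 of the 37 genes, yet only mt-Rnr1 passed the test, against 0.561% of all tested genes called higher. For 12 genes every normal sample exceeded every young sample, as for 3.03% of all tested genes. All 13 mRNAs had higher means in normal fibers, by 0.24 to 0.35 on the log2 scale with a median of 0.32. None of the 13 passed limma's adjusted threshold, and 8 had an unadjusted p under 0.05. With the replicate block 10 of the 37 genes were called, 8 of them mRNAs, and higher calls over all tested genes went from 81 to 214 of 14427. This block removes the spread between aged pairs from the error and has no counterpart among the Young samples.

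**Figure D2:**
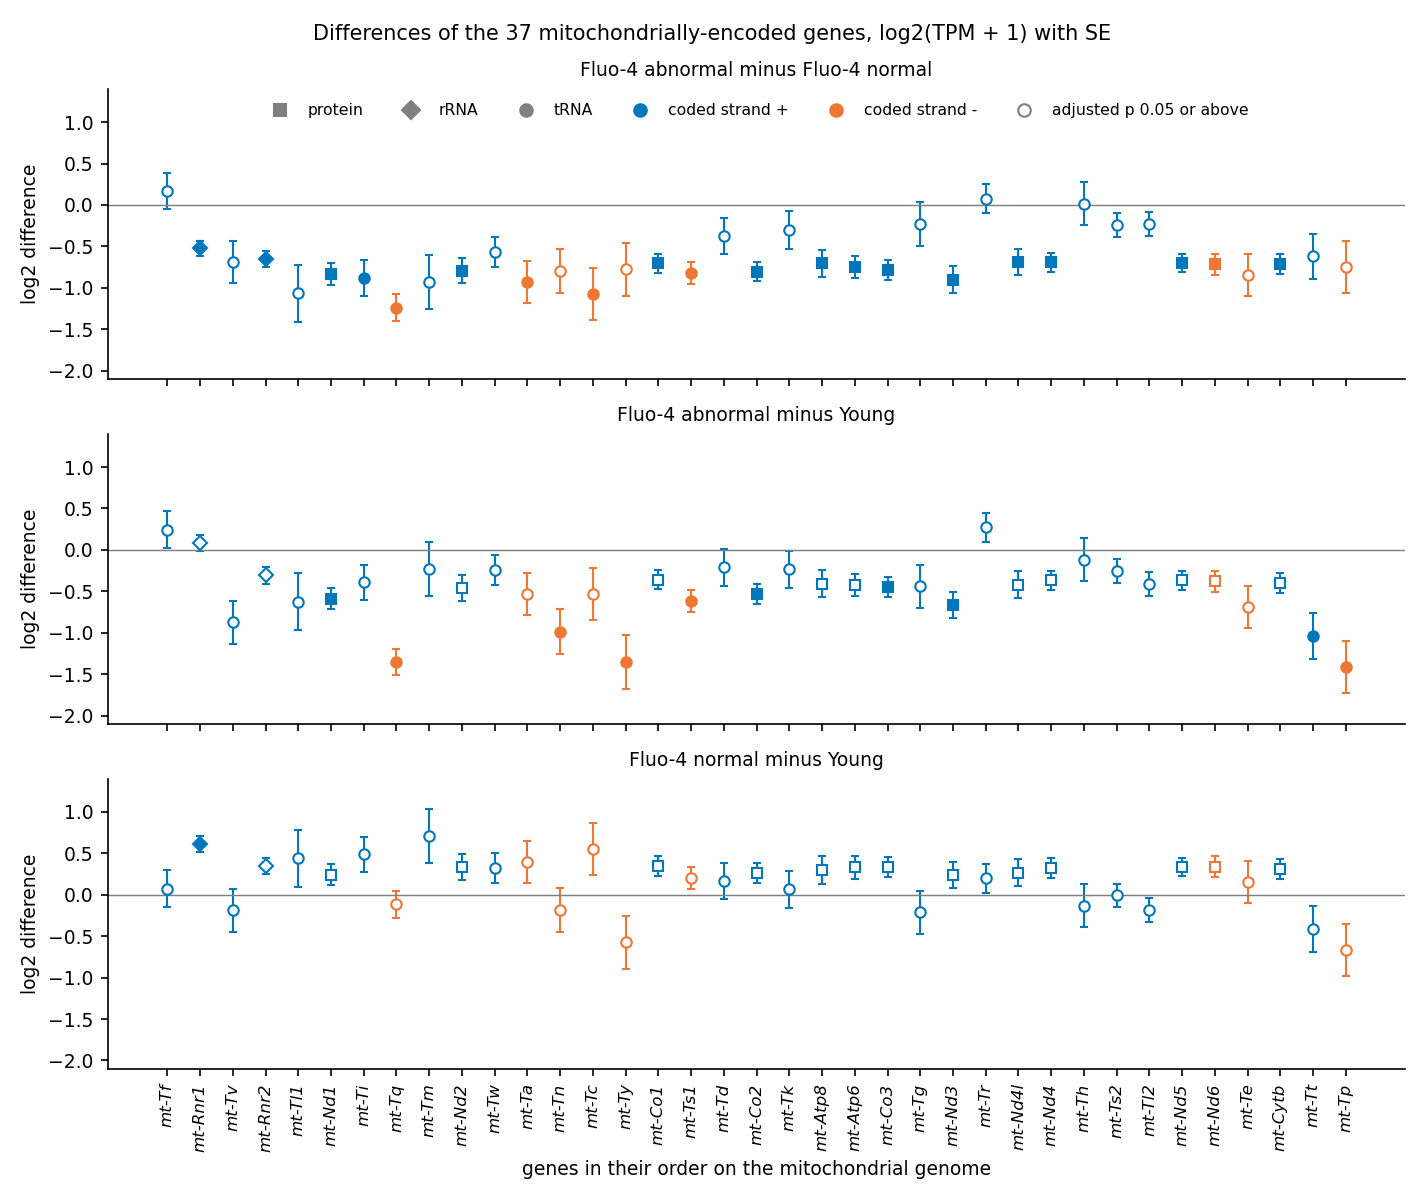
Log2 difference (log2(TPM + 1), ± SE) of each of the 37 genes in genome order for the 3 comparisons. Squares are protein genes, diamonds rRNA and circles tRNA genes, blue marks the + and orange the - coded strand, and filled symbols passed the adjusted threshold of 0.05. In the top panel all squares lie in a band between -0.90 and -0.69, while the tRNA genes scatter from -1.24 to 0.17.

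The 2 rRNA genes were both lower in abnormal than in normal fibers, and differed in whether abnormal and Young samples overlapped. Their ratio, given below, passed in no comparison. mt-Rnr1, the RNA of the small ribosomal subunit, stood at 703, 668, 633 and 681 TPM in Young, at 1115, 1120, 1044 and 841 TPM in Fluo-4 normal and at 727, 809, 655 and 662 TPM in Fluo-4 abnormal samples. Normal samples were above all others, whereas Young and abnormal samples overlapped. The log2 differences were 0.61 ± 0.10 for normal against Young (adjusted p = 0.0087), -0.53 ± 0.10 for abnormal against normal (adjusted p = 0.0058) and 0.08 ± 0.10 for abnormal against Young (adjusted p = 0.66), the last of which was -0.09 with TMM-type factors. Without Young 2, and likewise without Young 3, the first of these was no longer called. mt-Rnr2, the RNA of the large subunit, measured 5989 to 6656 TPM in Young, 7014 to 8728 TPM in normal and 4468 to 5694 TPM in abnormal samples. Here the 3 groups did not overlap, and the differences were 0.34 ± 0.10 (adjusted p = 0.12), -0.65 ± 0.10 (adjusted p = 0.0024) and -0.31 ± 0.10 (adjusted p = 0.074) in the same order. The kit primes on poly(A) tails, which are short or lacking on mitochondrial rRNAs and tRNAs, so their TPM is no measure of their abundance beside the mRNAs. mt-Rnr1 was listed under every mRNA in 11 of the 12 samples.

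The tRNA genes were read from few reads. TPM multiplied by gene length gave whole multiples of 1 number in each library for nearly all tRNA values (within 0.1 read), so the reads behind each value could be recovered. One read on 68 bases was worth 0.331 to 0.468 TPM. The 22 tRNA genes held 8972 reads over the 12 libraries, and mt-Ts1 (3971 reads), mt-Tq (3470), mt-Te (638) and mt-Tp (200) took 92.3% of them. The other 18 had at most 47 reads in a library, against an estimated 5641 or more for any mRNA. A library without a read at a gene allows up to 3 reads there, which is about the level of most + strand tRNA genes, so differences of most of these genes were not detectable at this depth.

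Reads at the tRNA genes may stem from either strand, since the kit does not keep it. Of them, the 8 genes coded on the - strand held 95.4% in Young, 94.2% in Fluo-4 normal and 95.4% in Fluo-4 abnormal fibers. Their reads per library were 711 to 966, 776 to 1057 and 303 to 462 in the same order. Those of the 14 + strand tRNA genes were 33 to 45, 44 to 82 and 13 to 26. Both sets were lowest in the abnormal samples. These are reads not scaled to depth, and 1 read was worth more TPM in abnormal libraries (0.442 to 0.468 on 68 bases) than in Young (0.331 to 0.412) and normal libraries (0.343 to 0.415). The fall in reads is thus larger than the fall in TPM. What part of it is depth was not tested. Intervals from such reads would cover counting error only, since copies made by PCR are not separate molecules.

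**Figure D3:**
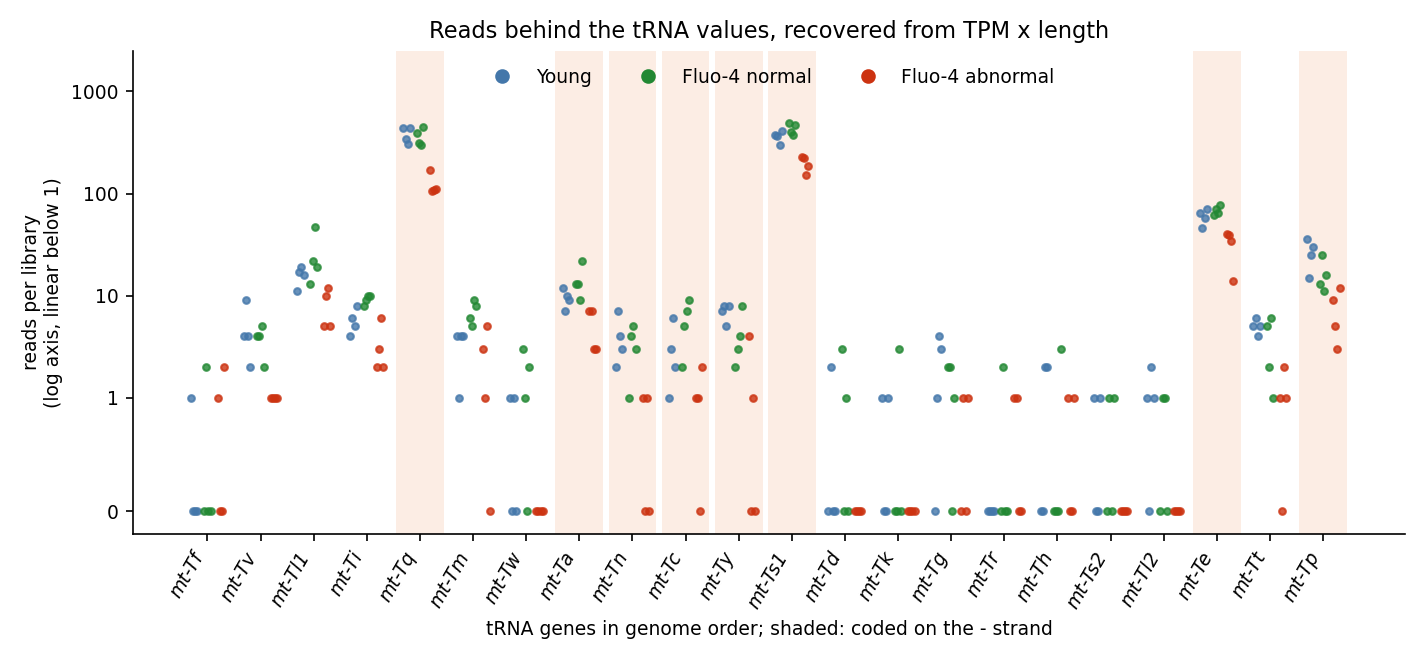
Reads per library (log axis, linear below 1) behind the values of the 22 tRNA genes in genome order, 4 points per group. Shaded genes are coded on the - strand. mt-Tq and mt-Ts1 reach 107 to 488 reads in each library, and most + strand tRNA genes hold fewer than 10.

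mt-Tq, the glutamine tRNA gene whose sequence is given above, showed the largest fall of the 37 genes between abnormal and normal fibers on the log2(TPM + 1) scale. Sparser tRNA genes had larger ratios of means, such as mt-Tc, and with a pseudocount of 0.1 mt-Tc was at -2.24 and mt-Tq at -1.25. mt-Tq stood at 131, 109, 120 and 148 TPM in normal samples, at 76.3, 46.4, 46.9 and 47.0 TPM in abnormal samples and at 167, 136, 112 and 138 TPM in Young samples. Young and normal samples overlapped, and every abnormal sample was below both groups. The log2 difference was -1.24 ± 0.16 against normal (adjusted p = 0.00086), -1.36 ± 0.16 against Young (adjusted p = 0.00036) and -0.12 ± 0.16 between normal and Young (adjusted p = 0.82). Relative to the mean log2 level of the 13 mRNAs in the same sample, mt-Tq was at -4.92 ± 0.26 in Young, -5.34 ± 0.34 in normal and -5.84 ± 0.28 in abnormal samples (SD). The abnormal and Young samples did not overlap on this scale, and the abnormal and normal samples did.

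mt-Ts1, a serine tRNA gene next to mt-Co1, stood at 169, 143, 153 and 159 TPM in normal and at 106.2, 100.4, 68.4 and 80.2 TPM in abnormal samples, a difference of -0.82 ± 0.13 (adjusted p = 0.0030). Against Young the difference was -0.62 ± 0.13 (adjusted p = 0.012). Both are of the size of the mRNA differences, and relative to the mRNAs the groups overlapped. mt-Te, the glutamate tRNA gene, was at 21.1 to 26.6 TPM in normal and 6.10 to 18.5 TPM in abnormal samples, without overlap, and just missed the threshold (-0.85 ± 0.25, adjusted p = 0.051). mt-Tp, the proline tRNA gene, was lower than Young in abnormal samples (-1.42 ± 0.32, adjusted p = 0.015), with 3 to 12 reads per abnormal against 15 to 36 per Young library.

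Of the remaining tRNA genes, mt-Ti, mt-Ta and mt-Tc fell against normal fibers, by 0.88 ± 0.22, 0.93 ± 0.25 and 1.08 ± 0.31, on at most 22 reads in any library. mt-Tn, mt-Ty and mt-Tt were lower than in Young fibers, on 8 reads or fewer in each library. These 6 calls rest on counts at which a few reads decide the value. The 3 genes with positive differences between abnormal and normal fibers, mt-Tf, mt-Tr and mt-Th, held at most 3 reads in any library.

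The differences were set against position along the + strand transcript. Over the 12 + strand mRNAs, Pearson's r between start position and log2 difference was 0.41 for abnormal against normal, 0.34 for abnormal against Young and 0.12 for normal against Young. With a library left out these ran from 0.28 to 0.50, from 0.29 to 0.38 and from -0.03 (without Fluo-4 normal 3) to 0.23 (without Young 2, and likewise without Fluo-4 normal 2). The points share libraries and neighbouring sequence, and the values are given as a description. The differences of the 12 genes varied by 0.22, 0.31 and 0.11 on the log2 scale from the lowest to the highest.

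Ratios between 2 genes of the same sample cancel its scaling. Of 9 ratios, each compared in 3 ways by a two-sided exact permutation test (70 arrangements, smallest possible p = 0.0286), none passed after adjustment over the 27 tests, where the smallest adjusted p was 0.0771. The ratio mt-Cytb/mt-Nd1, a distal over a proximal mRNA, was 1.18, 1.13, 1.14 and 1.15 in Young, 1.24, 1.13, 1.22 and 1.22 in Fluo-4 normal and 1.33, 1.26, 1.27 and 1.39 in Fluo-4 abnormal samples. The abnormal samples were above all others, with log2 differences of 0.12 against normal and 0.19 against Young (exact permutation p = 0.0286 and adjusted p = 0.0771 in both). mt-Co1/mt-Nd1 was higher in abnormal than in Young samples without overlap (log2 difference 0.23, exact permutation p = 0.0286, adjusted p = 0.0771). On the log2 scale relative to the 13 mRNAs, mt-Nd1 itself was at 0.70 ± 0.02 in Young, 0.63 ± 0.03 in normal and 0.55 ± 0.04 in abnormal samples (SD, n = 4), with no overlap between any groups. The ratios over mt-Nd1 all share this value. On that scale the distal mt-Nd3 was lower in abnormal than in Young samples by 0.22, and mt-Co1 was higher by 0.09, both without overlap. The differences of mt-Nd2, the mRNA after mt-Nd1, and of mt-Cytb were -0.01 and 0.05, with overlap.

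The ratio of the rRNAs, mt-Rnr1/mt-Rnr2, was 0.108 ± 0.00550 in Young, 0.129 ± 0.00792 in normal and 0.141 ± 0.0102 in abnormal samples. Both aged groups lay above Young without overlap, by 0.26 and 0.39 on the log2 scale (exact permutation p = 0.0286 and adjusted p = 0.0771 in both), and the aged groups overlapped. mt-Rnr2/mt-Nd1, an rRNA over the mRNA next to it, was higher in abnormal than in Young samples by 0.28 (exact permutation p = 0.0286, adjusted p = 0.0771). mt-Nd6/mt-Nd5 sets a gene coded on the - strand over its + strand neighbour. The kit does not keep the strand, so this ratio cannot separate the RNA of the strands. The ratio was 1.15 ± 0.00721, 1.16 ± 0.0422 and 1.15 ± 0.0549 in Young, normal and abnormal samples (SD). The log2 differences of -0.02 for abnormal against normal, -0.01 for abnormal against Young and 0.01 for normal against Young were within the spread (exact permutation p of 0.657 or more).

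**Figure D4:**
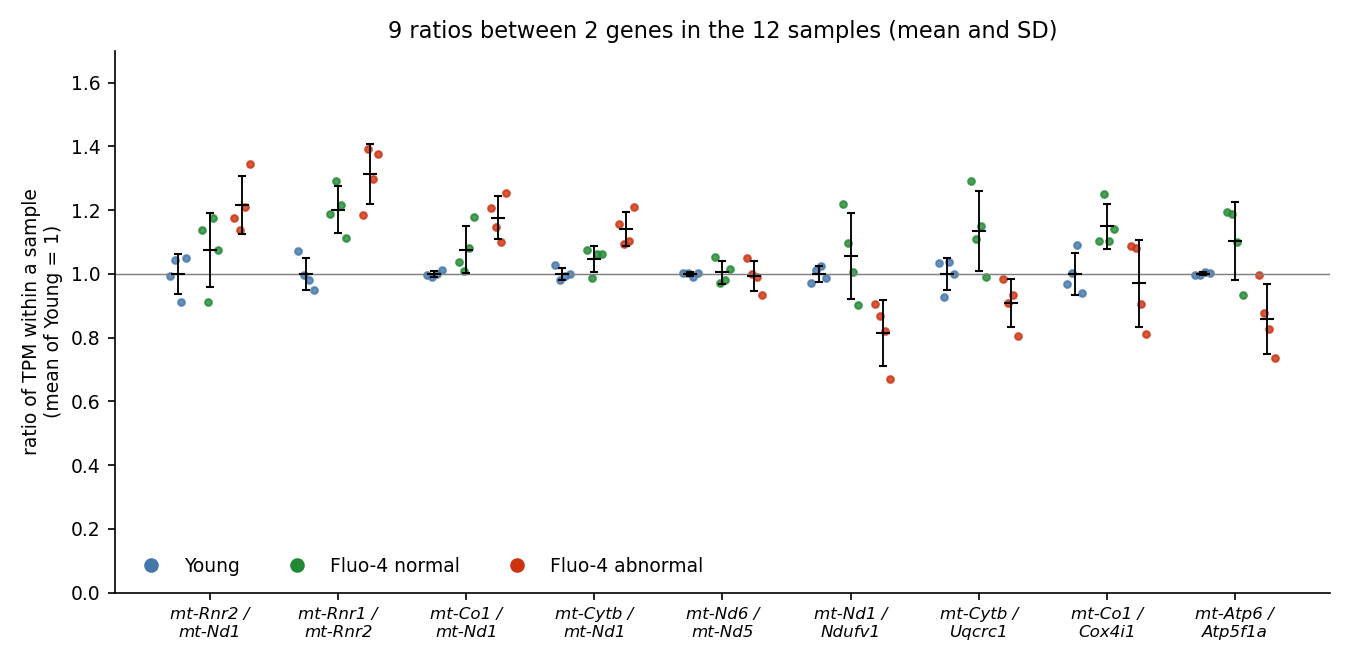
The 9 ratios of TPM between 2 genes in the 12 samples, each divided by its Young mean, with mean and SD in black. The 4 ratios on the left rise from Young to abnormal in their means, mt-Nd6/mt-Nd5 stays near 1, and the means of the 4 mitochondrial-to-nuclear ratios on the right are lowest in the abnormal group, with abnormal and Young samples overlapping for all but mt-Nd1/Ndufv1.

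Nuclear subunits of the same complexes were lower in abnormal than in normal fibers as well. Of 36 nuclear complex I genes tested, 36 had lower levels and 23 fell, with a median of -0.35. For complexes III, IV and V, 8 of 9, 10 of 11 and 14 of 15 fell, with medians of -0.39, -0.45 and -0.44. Of all tested genes, 1.99% were called lower, and the median over all of them was 0.10. Single nuclear genes reached the range of the mitochondrial mRNAs, such as Cox7a1 of complex IV (-0.78 ± 0.13, adjusted p = 0.0040) and Atp5g1 of complex V (-0.73 ± 0.09, adjusted p = 0.00076). Cox4i1, a nuclear subunit of complex IV, went from 2227 ± 88.1 TPM in normal to 1627 ± 90.5 TPM in abnormal fibers (SD, -0.45 ± 0.07, adjusted p = 0.0026). The ratio mt-Co1/Cox4i1 was 3.89 to 4.42 in normal, 2.86 to 3.83 in abnormal and 3.31 to 3.85 in Young samples, lower in all 4 abnormal than in all 4 normal samples by 0.25 on the log2 scale (exact permutation p = 0.0286, adjusted p = 0.0771). mt-Cytb/Uqcrc1 was lower in the same way by 0.32 (exact permutation p = 0.0286, adjusted p = 0.0771). For mt-Nd1/Ndufv1 and mt-Atp6/Atp5f1a the differences were -0.37 and -0.36, and samples of the groups overlapped (exact permutation p = 0.0571, adjusted p = 0.119 in both). All 4 mitochondrial-to-nuclear ratios were lower in the abnormal sample in 4 of 4 numbered pairs, which the unpaired test does not use. Against Young, mt-Nd1/Ndufv1 was lower in abnormal samples by 0.30 without overlap, and mt-Co1/Cox4i1 was higher in normal samples by 0.20 without overlap (exact permutation p = 0.0286, adjusted p = 0.0771 in both).

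Genes that transcribe mitochondrial DNA or process its RNA passed the test at about the share of all tested genes, of which 1349 of 14427 were called in either direction. Of 16 genes for mitochondrial transcription and DNA maintenance, Mrpl12, a ribosomal protein, fell between abnormal and normal fibers (-0.43 ± 0.08, adjusted p = 0.0068), and Tfb2m, a factor that opens mitochondrial promoters, rose (0.34 ± 0.09, adjusted p = 0.032). The other 14 did not pass, and the list's median was 0.04. Of 26 genes for mitochondrial RNA processing and decay, Mrm1, an rRNA methyltransferase, fell (-0.78 ± 0.22, adjusted p = 0.047) and Rexo2, an exonuclease of short RNAs, rose (0.33 ± 0.09, adjusted p = 0.042), with a median of 0.00. Mrm1 was a low gene, at 4.29 ± 1.06 TPM in normal and 2.15 ± 0.93 TPM in abnormal samples (SD), which overlapped.

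Some nuclear DNA is nearly identical to mitochondrial genes, and reads can be split between the copies. A block on chromosome 1 (GRCm39, 24650616 to 24655278) holds annotated pseudogenes that match the end of mt-Co1, all but the last bases of mt-Co2, mt-Atp6, mt-Co3, mt-Nd3 and mt-Nd4l, and the first part of mt-Nd4, with 99.7% to 100% identity. These copies carried 4.16% ± 0.161 of all TPM in Young, 5.22% ± 0.543 in Fluo-4 normal and 3.17% ± 0.574 in Fluo-4 abnormal samples, together with minor copies on chromosomes 2 and 13. The copy of mt-Co3 was listed at as much TPM as the gene, 1.03, 1.03 and 1.01 times in Young, normal and abnormal fibers, and the copies of mt-Co1, mt-Co2 and mt-Nd4 at 1.99, 2.00 and 2.11, at 0.464, 0.445 and 0.439 and at 0.0412, 0.0420 and 0.0415 times. The ratio of copy to gene thus hardly differed between groups, while the split of reads between gene and copy is uncertain for mt-Co1, mt-Co2, mt-Atp6, mt-Co3, mt-Nd3 and mt-Nd4l. Adding the copies to their genes left 20 genes called between abnormal and normal fibers, all 13 mRNAs among them.

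**Figure D5:**
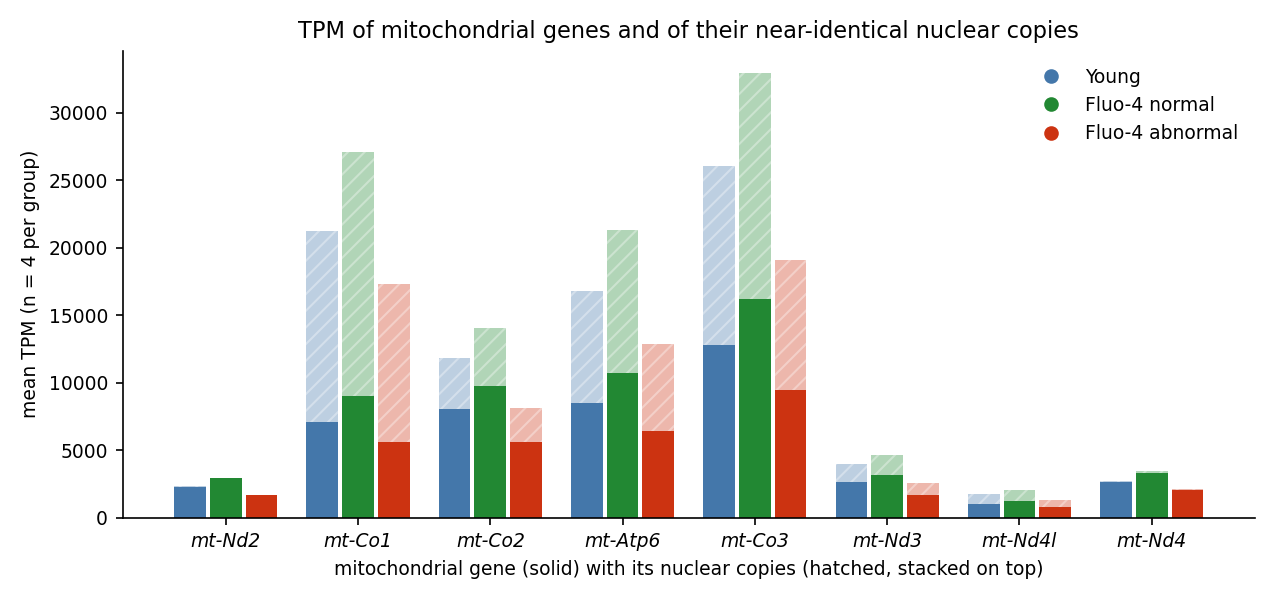
Mean TPM (n = 4 per group) of the 8 mitochondrial genes with nuclear copies of 1 TPM or more, solid, and of their copies, hatched and stacked on top. The hatched part is about as tall as the solid bar for mt-Atp6 and mt-Co3, about 2.0 times as tall for mt-Co1 and barely visible for mt-Nd2 and mt-Nd4.

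Of the 4 myosin heavy chains that mark fiber type, Myh4 alone passed the test between abnormal and normal fibers, and none passed in the comparisons with Young. Myh4, the myosin of the fastest fibers, took 98.9% to 99.7% of the TPM of 4 adult myosin heavy chains in Fluo-4 abnormal, 93.7% to 99.2% in Fluo-4 normal and 96.9% to 98.6% in Young samples, with overlap between abnormal and normal samples, and its level was higher in abnormal than in normal fibers (0.66 ± 0.16, adjusted p = 0.020). Myh1, of a more oxidative fast type, was at 76.1 ± 48.0 TPM in abnormal and 334 ± 227 TPM in normal fibers (SD, adjusted p = 0.087). With the Myh4 share as a covariate, 8 of the 37 genes passed between abnormal and normal fibers, mt-Rnr2, mt-Nd1, mt-Co2, mt-Co3, mt-Cytb and the tRNA genes mt-Tq, mt-Ts1 and mt-Tw, and all 13 mRNAs kept a lower level (-0.77 to -0.55). mt-Tw did not pass without this covariate (adjusted p = 0.070 by limma). It held at most 3 reads in any library and 0 in each abnormal library. Over all tested genes, lower calls went from 287 to 108 of 14427 with this covariate. With both the replicate block and this share, 8 of all tested genes were called lower, and mt-Nd1, mt-Nd3 and mt-Nd4 were 3 of them. The 13 mRNAs were at -0.74 to -0.52 in that fit. The part of fiber type in these differences was not tested.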

How the data were processed

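RNA was extracted from isolated myofibers, and 10 ng of it entered the SMART-Seq v4 kit. Reads were aligned by the authors with DRAGEN 4.3 (genome GRCm39), and the deposited values are TPM computed by that program, in 1 table per sample. The annotation release is not given in the sources used here. Counts and total depth were not used here; reads of tRNA genes were recovered from TPM times length (tolerance 0.1 read), and those of longer genes were estimated with the same factor. Each table held 55487 rows, and symbols on several rows were summed.

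Protein-coding and mt- genes with a mean of at least 0.02 TPM in 1 group or more (14427 genes) were fitted as log2(TPM + 1) with limma 3.58.1 in R 4.3.3 (variance trend, 3 groups in 1 model), with Benjamini-Hochberg adjusted p-values. The pseudocount understates changes of low genes. Ratios were compared by exact permutation with scipy 1.17.1. Nuclear copies were searched with BLAST 2.17.0 (95% identity, 100 bases and 50% of the transcript). Gene positions and printed sequences are those of GENCODE vM39 and GRCm39. The fit was tested on simulated data.

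Same-numbered Fluo-4 normal and abnormal samples deviated together from their group means (r = 0.44, 0.37, 0.43 and 0.30 over 5994 genes), so the numbers were taken to pair them. The pairing rests on these values, since the labels do not say what a number marks. All 37 members could be named, and in each nuclear gene list the 3 genes with the smallest p between abnormal and normal fibers, the genes of the ratios and the myosins. The members, lists and tests were chosen with earlier results of these data known. Alternatives were other scalings, filters, pseudocounts and samples, the replicate block and the Myh4 share as a covariate. Adding nuclear copies in proportion to length was chosen after seeing the data.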

Additional observations from a re-analysis of the deposited data

Results flagged for a closer look

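Among 96 groups of 4 values checked, 4 had a sample far from the other 3 by Dixon's test, and chance flags about 1 in 20 groups. mt-Nd5 was at 2220 TPM in Fluo-4 normal 2, against 1754 to 1779 TPM in the other normal samples. mt-Tq was at 76.3 TPM in Fluo-4 abnormal 1, against 46.4 to 47.0 TPM in the other abnormal samples. The ratio mt-Cytb/mt-Nd1 was 1.13 in Fluo-4 normal 2 and 1.22 to 1.24 in the other normal samples. The ratio mt-Nd6/mt-Nd5 was 1.14 in Young 3 and 1.16 in each of the other Young samples.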

How the results depend on the processing

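For the genes called, 380 values under other settings kept their direction and side of the threshold, 80 kept the direction and missed the threshold, and 0 reversed. Between abnormal and normal fibers, 20 of the 37 genes were called as reported, 8 with the Myh4 share as a covariate, 3 with the replicate block and that share, 25 with the replicate block alone, and 15 to 20 with a library left out. Lower calls over all genes were 287, 108, 8 and 407 in the first 4 of these, and 184 to 297 with a library left out. With only the 2 groups compared in the fit, 14 of the 37 genes were called, and lower calls over all genes were 145. Over all genes, TMM-type factors turned 1062 higher and 287 lower calls into 308 and 544. Against Young, 10 genes of abnormal fibers were called, 1 without a filter, 20 with the replicate block and 4 to 14 with a library left out. Lower calls over all genes were 347, 235, 528 and 198 to 430 in the same order. Between normal and Young fibers 1 gene was called, 2 with a filter of 5 TPM (mt-Rnr2 in addition), 10 with the replicate block and 0 to 1 with a library left out. Higher calls over all genes were 81, 101, 214 and 28 to 113 in the same order. With a filter of 5 TPM or none, another number of genes was tested. The block kept every call reported in the 3 comparisons. Adding nuclear copies put the mRNA share at 11.2%, 14.0% and 8.40% in Young, normal and abnormal fibers, and r with position at 0.33 for abnormal against normal, 0.25 for abnormal against Young and 0.06 for normal against Young. With a library left out, mt-Nd6/mt-Nd5 changed sign, as its log2 difference ran from -0.0427 to 0.0136 for abnormal against normal, from -0.0365 to 0.0198 for abnormal against Young and from -0.0161 to 0.0217 for normal against Young. The difference of mt-Nd1/Ndufv1 between normal and Young fibers ran from -0.00062 to 0.144. That of mt-Co1/Cox4i1 between abnormal and Young fibers ran from -0.109 to 0.0325, and was 0.00346 with nuclear copies added. The cause was not tested. Depth limits the tRNA genes most.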
